A study of Drosophila melanogaster with 23 samples.

Results

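The genes described here are the translation initiation factors (eIF) and translation elongation factors (eEF) of Drosophila melanogaster, chosen by name as every gene whose FlyBase symbol starts with eIF or eEF. The count tables held 50 of them among 17023 genes, all protein coding. A further 2 symbols of the same kind, eEF1alpha1 and eEF5, were not analysed here. The rule used no measured value.

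Translation of an mRNA starts when the cap-binding protein eIF4E, the scaffold eIF4G and the helicase eIF4A gather on its 5' cap. The small ribosomal subunit, carrying eIF1, eIF1A, eIF3, eIF5 and the initiator tRNA held by eIF2, then scans for a start codon. The exchange factor eIF2B recharges eIF2 with GTP, eIF5B joins the large subunit, eIF6 keeps free large subunits apart from small ones, and the eEF1 and eEF2 factors drive elongation. In the fly ovary, germline stem cells and their daughters are known for tight control of protein synthesis, and eIF4EHP, a cap-binding relative that does not bind eIF4G, takes part in repression of maternal mRNAs. Several Drosophila factors have paralogs. eIF4E3 and eIF4G2 (also called off-schedule) are known for roles in male germ cells.

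The measurements were mRNA sequencing counts (poly(A) selection) of 23 ovary libraries in 12 groups, from flies dissected 1 to 5 days after eclosion. Every group had 2 libraries except whole ovaries, which had 1. Ovaries labelled MSL3 RNAi, NC2b RNAi, Set2 RNAi and S19b RNAi carried the named RNAi with UAS-Dcr2 and nosGAL4, a driver active in germ cells, and no bam RNAi. Their control, hsbam, carried bam RNAi and hsbam (in the field, a bam transgene under a heat-shock promoter) with nosGAL4, and its label names no UAS-Dcr2. Ovaries with bam RNAi and an S19b mutation were set against ovaries with bam RNAi alone, both with nosGAL4. Whole ovaries carried UAS-Dcr2 and nosGAL4 with no RNAi and served the study for developmental staging. Libraries of hsbam numbered 1 and 2 were the control of MSL3 RNAi and NC2b RNAi, and those numbered 3 and 4 were the control of Set2 RNAi. S19b RNAi and hsbam were also profiled as total RNA and as polysome RNA, both after loading on polysome gradients. Each comparison with hsbam thus differs in the handling of bam and in UAS-Dcr2 as well as in the targeted gene, and the driver acts in germ cells while the libraries hold the whole dissected tissue.

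The targeted genes and several libraries bear on every value that follows. The msl-3 transcript had 65.6 and 39.0 CPM (the count relative to the library's total) in the libraries labelled MSL3 RNAi, against 32.0 and 38.5 CPM in hsbam 1 and 2, so its direction runs against the label. The difference did not pass (log2 fold change 0.65, SE 0.28, adjusted p = 0.14 by edgeR), and NC2b RNAi had 55.6 and 64.2 CPM. NC2beta had 4.69 and 5.12 CPM in NC2b RNAi and 12.2 and 16.0 CPM in hsbam 1 and 2. Set2 itself stood at 62.2 and 54.3 CPM with Set2 RNAi, and its control pair hsbam 3 and 4 at 265.8 and 37.2 CPM, so these ranges overlap. Within that pair the overlap comes from hsbam 4. The other hsbam pair was not uniformly higher either. Set2 had 95.7 and 59.8 CPM in hsbam 1 and 2, so hsbam 2 lay between the Set2 RNAi libraries. In the MSL3-labelled and NC2b RNAi libraries, which also carried UAS-Dcr2, Set2 had 263.3 to 398.2 CPM. RpS19b, taken as the gene the labels call S19b, had 29.9 and 15.0 CPM in the mutant with bam RNAi and 188.8 and 248.9 CPM in bam RNAi alone. With S19b RNAi its level was 16.8 and 1.44 CPM for total RNA and 16.1 and 3.51 CPM in polysome RNA, against 39.4 and 227.5 CPM in hsbam total RNA and 85.1 and 255.7 CPM in hsbam polysome RNA. Total counts ran from 2780781 in hsbam polysome 2 to 39149303 in hsbam 3. Under 9000 genes had a count in 4 libraries (7394 to 8937 genes), which were hsbam total 2, hsbam polysome 2, S19b RNAi total 1 and S19b RNAi polysome 1. The other 19 libraries had 10383 to 12923 such genes. Summed heat shock genes (7 genes) stood at 15240 to 42010 CPM in hsbam 3 and 4 and the hsbam total and polysome libraries, against 878.8 to 2953 CPM in all others. Summed germline markers (6 genes) lay between 358.3 and 2355 CPM in every library, and summed testis markers (5 genes) at 6.28 CPM or less. The germline list holds bgcn and bam, and bam ran from 2.09 CPM in bam RNAi 1 to 383 CPM in hsbam total 1. As the groups handle bam differently, this sum is not a measure of germ cell content alone. The labels do not state whether replicate libraries were dissected separately, and p-values measure the spread between these libraries only. In bulk tissue, fewer cells of a type and less RNA per cell cannot be told apart.

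The 50 translation factors together took 1.82% of the reads in MSL3 RNAi replicate 1 and 3.71% in whole ovaries, the lowest and highest share of the 23 libraries, with a median of 2.34%. These shares and the rankings below leave out eEF1alpha1 and eEF5, which had no entry in the count tables used. Of the 50 genes, 40 had a median of at least 10 CPM over the libraries and 10 had less. Among the 50, elongation factors and the helicase led. Per kb of exon, eEF2, the translocation factor (chromosome 2L, 21677913 to 21682164, dm6, minus strand), had the highest median level, 2113 CPM per kb. The eEF1 subunit eEF1gamma followed at 1092 CPM per kb, eIF4A at 1002, eEF1beta at 751.7 and eIF1 at 694.0. In CPM, eEF2 ranged from 4306 in hsbam polysome 2 to 12850 in whole ovaries, where it made up 34.7% of the reads on these 50 genes.

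The 5 subunits of eIF2B were the scarcest of the widely measured core complexes, with medians of 21.7 to 39.6 CPM per kb. The eIF2 subunits stood higher, with medians of 162.9 CPM per kb for eIF2alpha, the subunit whose phosphorylation represses initiation, 238.4 for eIF2beta and 122.1 for eIF2gamma, which binds the initiator tRNA. The ratio of eIF2beta to eIF2alpha per kb lay between 0.963 and 2.36 over the 23 libraries, and that of eIF2gamma to eIF2alpha between 0.518 and 1.22. The 13 main eIF3 subunits lay in a narrow band. In 22 of 23 libraries their highest level per kb was 2.09 to 5.11 times their lowest, and in the shallowest library, hsbam polysome 2, it was 45.2 times.

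A set of paralogs was near absent. The gene eIF3d2 had no count in any of the 23 libraries (a count of 0 allows up to 3 counts in each, 0.0992 CPM in whole ovaries), and eIF3g2 had 1 count in all. The cap-binding paralog eIF4E4 had 8 counts over all libraries, all in Set2 RNAi, and eIF4E5 peaked at 1.10 CPM. Read against these, eIF3f1, eIF3d1 and eIF3g1 had medians of 210.0, 413.8 and 227.7 CPM. The helicase cofactor eIF4B had a median of 1.16 CPM and eIF4H2 had a median of 0, while the related cofactor eIF4H1 stood at 502.1 CPM.

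**Figure D1:**
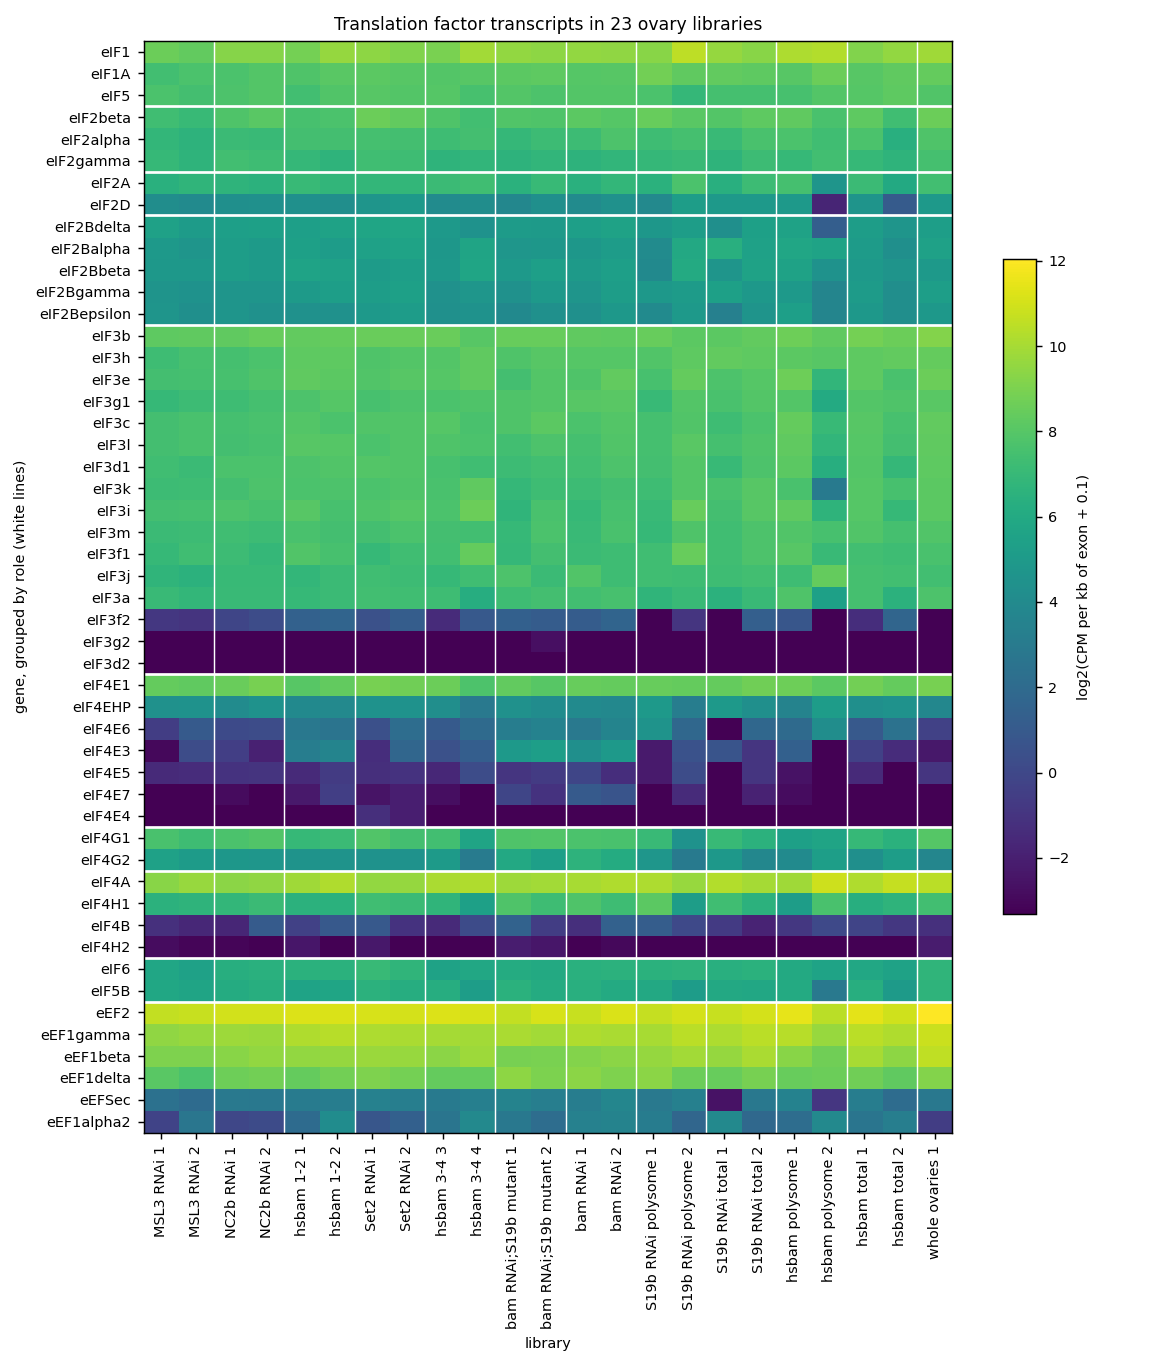
Levels of the 50 translation factors (rows, grouped by role) in the 23 libraries (columns, groups separated by white lines), as log2 of CPM per kb of exon plus 0.1. The 10 genes with a median under 10 CPM form dark rows in the eIF3, cap-binding and cofactor blocks, and eEF2 has the highest median.

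The cap-binding family was carried by eIF4E1 (chromosome 3L, 9399618 to 9402460, minus strand), the general cap-binding factor, with 483.3 to 1073 CPM. It held 83.4% to 99.7% of the summed level per kb of the 6 eIF4E genes, eIF4EHP not included. The paralog eIF4E3 (chromosome 3L, 8229224 to 8230568, plus strand) took 8.66% and 12.7% of it in bam RNAi with the S19b mutation, 5.16% and 8.40% in bam RNAi and 3.15% and 3.48% in hsbam 1 and 2, with a median of 0.353% over the 23 libraries. The level of eIF4E3 was 33.4 and 41.2 CPM in bam RNAi with the S19b mutation and 20.7 and 33.2 CPM in bam RNAi. It was 9.25 and 12.5 CPM in hsbam 1 and 2, and at most 3.43 CPM in each of the other 17 libraries. Thus all 4 libraries whose labels name bam RNAi without hsbam were above hsbam 1 and 2, which were above every other library. The hsbam libraries themselves did not share a level: hsbam 3 and 4 had 1.38 and 2.43 CPM, below both hsbam 1 and hsbam 2. The bam transcript had 4.61 and 71.9 CPM in hsbam 1 and 2, 173 and 77.0 CPM in hsbam 3 and 4, and 2.09 and 6.17 CPM in bam RNAi. Summed heat shock genes stood at 955.9 and 1437 CPM in hsbam 1 and 2, and 17810 and 30860 CPM in hsbam 3 and 4. The part of either in the eIF4E3 level was not tested. eIF4E7 was at 1.34 and 0.607 CPM in bam RNAi with the S19b mutation and 3.14 and 2.44 CPM in bam RNAi, against 1.03 CPM or less elsewhere. eIF4E6 ranged from 0 in S19b RNAi total 1 to 16.4 CPM in S19b RNAi polysome 1, both libraries with few genes detected. Summed testis markers (5 genes) came to 1.676 and 1.601 CPM in bam RNAi with the S19b mutation and 1.05 and 2.18 CPM in bam RNAi, and lay between 0.0 and 6.28 CPM in the other 19 libraries. Their part in the eIF4E3 level was not tested.

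The scaffold eIF4G2 (chromosome 3R, 23808285 to 23819237, minus strand) shares 8.6% of its exon bases with CG33111 on the same strand. It had 568.4 and 376.3 CPM in bam RNAi with the S19b mutation, 885.3 and 625.7 CPM in bam RNAi, 401.3 and 307.8 CPM in MSL3-labelled libraries, 250.3 and 245.2 CPM in NC2b RNAi, 214.8 and 214.1 CPM in hsbam 1 and 2, 206.1 and 204.9 CPM with Set2 RNAi, 293.8 and 75.9 CPM for hsbam 3 and 4, 70.2 to 349.5 CPM over the 8 total and polysome libraries, and 117.5 CPM in whole ovaries (95% Poisson interval 113.6 to 121.4, counting error only). The libraries with bam RNAi alone were the highest of all 23, and whole ovaries were the third lowest. The general scaffold eIF4G1 (chromosome 4, 915297 to 930715, minus strand) had its highest level in whole ovaries, 1644 CPM. Of the summed eIF4G level per kb, eIF4G2 took 21.5% and 15.1% in bam RNAi with the S19b mutation, 32.5% and 25.9% in bam RNAi, and 4.90% in whole ovaries. High shares were not particular to the libraries of bam RNAi alone. The highest, 43.5%, was in hsbam polysome 2, and the share was 29.2% in hsbam total 2, 27.7% in hsbam polysome 1 and 25.4% in S19b RNAi polysome 2. Of these, the hsbam libraries also carry bam RNAi. In the same order, eIF4G1 had 327.6, 596.5, 279.7 and 148.4 CPM there, against a median of 1011 CPM over the 23 libraries.

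**Figure D2:**
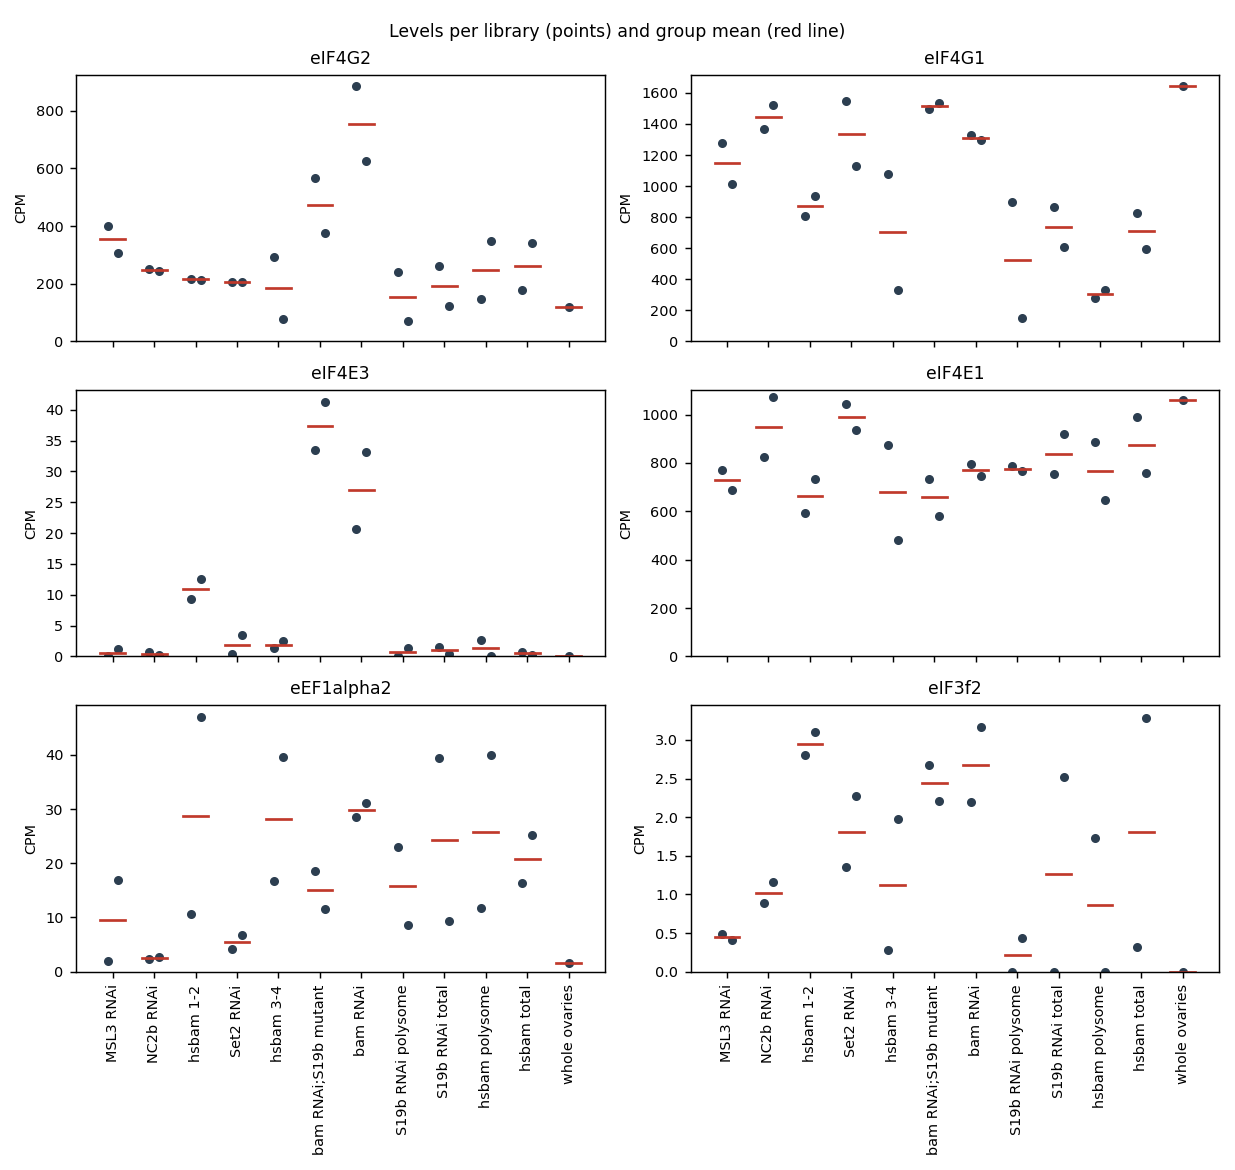
CPM of eIF4G2, eIF4G1, eIF4E3, eIF4E1, eEF1alpha2 and eIF3f2 in each library (points) by group, with the group mean as a red line. The panels show eIF4E3 above 20 CPM only in the 4 libraries of bam RNAi with and without the S19b mutation, and eEF1alpha2 spread widely within hsbam 1-2 and MSL3 RNAi.

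In the libraries labelled MSL3 RNAi the translation factors were mostly lower than in hsbam 1 and 2. Of 45 tested, 1 rose and 7 fell, with the quasi-likelihood test of edgeR, Benjamini-Hochberg adjustment over all genes tested and a threshold of 0.05. The background in this comparison was 25.3% of 10180 genes, 16.8% up and 8.48% down. The 17.8% of the factors called is below the share of all genes, but the directions differed. The 1 of 45 that rose is a smaller share than 16.8%, and the 7 of 45 that fell a larger share than 8.48%. Their median log2 fold change was -0.40, against -0.09 over all genes, with 37 below 0 and 8 above. In 32 factors both MSL3-labelled libraries were below both hsbam libraries and in 4 both were above, against 34.3% and 29.3% of all genes. The calls leaned on single libraries: none passed without hsbam 2, NC2b RNAi 1 or NC2b RNAi 2 (the NC2b RNAi libraries share the fit's estimate of spread), 1 passed without hsbam 1 (eIF1) or without MSL3 RNAi 1 (eIF6), and 4 passed without MSL3 RNAi 2. A group left with 1 library was taken to vary like the others. With all 4 hsbam libraries as the control 0 passed, with DESeq2 size factors 5, with no filter on low counts 3, and by DESeq2 itself 15. The shares of all genes called under these alternatives are not given here. Summed germarium somatic markers (8 genes) stood at 687.5 and 1580 CPM in MSL3-labelled libraries and 1588 and 1702 CPM in hsbam 1 and 2, with 2 of 8 that fell and a median log2 fold change of -1.90. Summed germline markers (6 genes, bam included) stood at 772.7 and 478.6 CPM in MSL3-labelled libraries and 880.8 and 1259 CPM in hsbam (median -0.52, 1 of 6 fell). Fat body markers (3 genes) stood at 354.5 and 2816 CPM in MSL3-labelled libraries and 791.2 and 374.2 CPM in hsbam (median 1.29, 0 called). Follicle cell markers (8 genes) stood at 9507 and 10790 CPM in MSL3-labelled libraries and 7379 and 16480 CPM in hsbam (median -0.56, 1 rose and 1 fell). Every gene of these lists had a count in each of these libraries, and the part of these cells in the factors' levels was not tested.

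The factors that fell came from several steps of initiation. eIF6, which binds free large subunits (chromosome 2R, 23849246 to 23850301, minus strand), had 58.1 and 46.1 CPM in MSL3-labelled libraries and 93.4 and 93.2 CPM in hsbam 1 and 2. Both MSL3-labelled libraries were lower, and the log2 fold change was -0.77 (SE 0.17, adjusted p = 0.0267 by edgeR). eIF2alpha (chromosome X, 16445176 to 16446993, minus strand) had 174 and 147 CPM in MSL3-labelled libraries, against 267 and 264 CPM in hsbam, a log2 fold change of -0.65 (SE 0.16, adjusted p = 0.0361 by edgeR). Some 12.6% of its exon bases overlap rngo on the other strand. Its partner eIF2beta had 182 and 147 CPM in MSL3-labelled libraries and 213 and 231 CPM in hsbam (-0.36, SE 0.20), and eIF2gamma had 281 and 224 CPM in MSL3-labelled libraries and 269 and 224 CPM in hsbam (0.10, SE 0.20). Neither passed. eIF2Bbeta, a regulatory subunit of the exchange factor, fell to 39.9 and 38.7 CPM in MSL3-labelled libraries, against 65.1 and 59.7 CPM in hsbam (-0.59, SE 0.16, adjusted p = 0.0463 by edgeR).

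Of the 14 eIF3 genes tested, 4 fell, against 8.48% of all genes, and all 14 had a fold change below 0. eIF3h had 234.5 and 281.5 CPM in MSL3-labelled libraries and 446.5 and 446.1 CPM in hsbam 1 and 2, a log2 fold change of -0.71 (SE 0.19, adjusted p = 0.0428 by edgeR), with 16.8% of its exon bases shared with senju on the other strand. eIF3g1, an RNA-binding subunit, had 131 and 150 CPM in MSL3-labelled libraries, against 222 and 265 CPM in hsbam (-0.72, SE 0.19, adjusted p = 0.0413 by edgeR). eIF3e had 265 and 274 CPM in MSL3-labelled libraries, against 466 and 435 CPM in hsbam (-0.67, SE 0.19, adjusted p = 0.0476 by edgeR). In each of the 3 the groups did not overlap. The scarce paralog eIF3f2 (chromosome 2R, 6200853 to 6201956, plus strand) rested on 17 and 13 counts in MSL3-labelled libraries and 95 and 57 counts in hsbam 1 and 2. Its level was 0.488 and 0.414 CPM in MSL3-labelled libraries, against 2.81 and 3.10 CPM in hsbam, a log2 fold change of -2.62 (SE 0.56, adjusted p = 0.0228 by edgeR). Its main copy eIF3f1 had 163 and 210 CPM in MSL3-labelled libraries and 306 and 244 CPM in hsbam and did not pass (-0.49, adjusted p = 0.177 by edgeR).

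The single rise was eIF4G2, at 401.3 and 307.8 CPM in MSL3-labelled libraries, against 214.8 and 214.1 CPM in hsbam 1 and 2. The log2 fold change was 0.80 (SE 0.19, adjusted p = 0.0300 by edgeR). At the cap, eIF4G1 had 1280 and 1011 CPM in MSL3-labelled libraries, against 805.2 and 932.9 CPM in hsbam, and did not pass (0.47, adjusted p = 0.169 by edgeR). eIF4EHP had 141.5 and 144.0 CPM in MSL3-labelled libraries and 98.4 and 95.2 CPM in hsbam (0.63, adjusted p = 0.0607 by edgeR). It shares 7.0% of its exon bases with Syx1A on the same strand. eIF4E1 was at 772.3 and 689.2 CPM in MSL3-labelled libraries and 594.1 and 732.0 CPM in hsbam, which overlap. eIF4E3 stood at 0.0287 and 1.15 CPM in MSL3-labelled libraries (1 and 36 counts), against 9.25 and 12.5 CPM in hsbam, but the spread between the MSL3-labelled libraries was wide (-4.12, SE 1.43, adjusted p = 0.0860 by edgeR). eIF4A had 1550 and 2019 CPM in MSL3-labelled libraries and 2324 and 2973 CPM in hsbam (-0.49, adjusted p = 0.208 by edgeR). eIF5, which triggers GTP hydrolysis by eIF2, was at 655 and 558 CPM in MSL3-labelled libraries and 541 and 754 CPM in hsbam (-0.02), and 80.8% of its exon bases are shared with CG46312 on the same strand. eIF5B was at 248 and 216 CPM in MSL3-labelled libraries and 214 and 233 CPM in hsbam (0.13).

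All 6 elongation factors tested had a fold change below 0, and none passed. eEF2 was at 4813 and 5262 CPM in MSL3-labelled libraries and 7384 and 7092 CPM in hsbam 1 and 2 (-0.45, SE 0.23, adjusted p = 0.211 by edgeR). eEF1alpha2, a paralog of the tRNA-delivering factor, had 1.95 and 16.9 CPM in MSL3-labelled libraries and 10.6 and 47.0 CPM in hsbam, which overlap. Summed muscle sheath markers (8 genes, all with a count) stood at 4405 and 13020 CPM in MSL3-labelled libraries and 25360 and 7640 CPM in hsbam 1 and 2, and their part in this value was not tested.

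Exon length moved with these fold changes. Of the 40 factors with a median of at least 10 CPM, all 22 with under 2000 exon bases had a fold change below 0 in MSL3-labelled libraries (median -0.52), and of the 18 longer ones 8 were above 0 and 10 below (median -0.02). The 7 that fell had 1027 to 1520 exon bases, and the one that rose, eIF4G2, had 9097, the most of all 50. The same split over all genes with a length gave medians of -0.36 (4951 genes) and 0.22 (5011 genes). Across the 40 factors, Spearman's rho of exon length with fold change was 0.66, and over 9962 genes it was 0.33. These are descriptions across genes, which share their libraries and are not replicates, and the part of length in the calls was not tested.

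**Figure D3:**
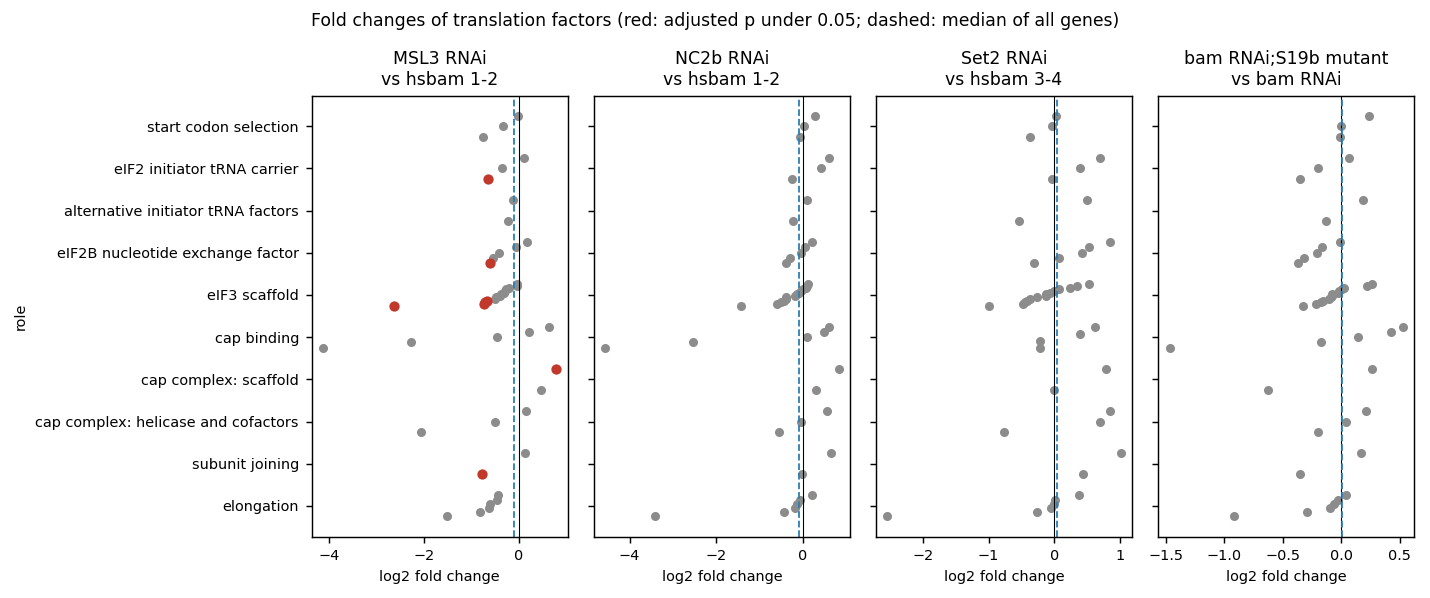
Log2 fold change of each translation factor tested (points, grouped by role) in 4 comparisons, with red points at an adjusted p under 0.05 and the dashed line at the median of all genes. The MSL3-labelled comparison has 8 red points, 7 of them left of 0, and the other panels have none.

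In NC2b RNAi no factor passed the test against the same hsbam libraries. Of 45 tested, 0 passed by edgeR, against 18.6% of 10180 genes (14.1% up, 4.53% down), with 12 at an unadjusted p under 0.05 (6 higher, 6 lower; 39.4% of all genes) and 9 called by DESeq2 (4 higher, 5 lower). The median log2 fold change was -0.04, against -0.09 over all genes. Both NC2b RNAi libraries were above both hsbam libraries in 8 factors and below in 22, against 31.9% and 40.6% of all genes. When either MSL3-labelled library was left out of the shared fit, eIF4G1 and eIF5B passed as higher and eEF1alpha2, eIF4E3 and eIF4E6 as lower. The shares of all genes called there and by DESeq2 are not given here. The value nearest the threshold was that of eIF4G1, with 1365 and 1521 CPM in NC2b RNAi and 805.2 and 932.9 CPM in hsbam 1 and 2 (0.83, SE 0.22, adjusted p = 0.0523 by edgeR). eIF5B was next, at 309 and 345 CPM in NC2b RNAi and 214 and 233 CPM in hsbam (0.65, SE 0.17, adjusted p = 0.0525 by edgeR). Both are long transcripts, of 6565 and 4410 exon bases, and Spearman's rho of length with fold change was 0.35 over the 40 factors and 0.16 over 9962 genes.

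The initiator tRNA carriers eIF2beta and eIF2gamma were at 248 and 307 CPM and at 366 and 342 CPM in NC2b RNAi, against 213 and 231 CPM and 269 and 224 CPM in hsbam 1 and 2. Neither passed, at log2 fold changes of 0.42 and 0.62. eIF2alpha was at 212 and 210 CPM in NC2b RNAi and 267 and 264 CPM in hsbam (-0.23, SE 0.16, adjusted p = 0.318 by edgeR). The cap-binding paralogs eIF4E3 (0.649 and 0.174 CPM in NC2b RNAi, from 22 and 3 counts) and eIF4E6 (0.678 and 0.756 CPM) were far under hsbam, at 9.25 and 12.5 CPM and at 4.82 and 4.02 CPM. Their log2 fold changes of -4.56 (SE 1.47) and -2.52 (SE 0.73) did not pass, with adjusted p = 0.0796 and 0.0630 by edgeR. eIF6 was at 83.0 and 90.2 CPM in NC2b RNAi and 93.4 and 93.2 CPM in hsbam (-0.01, SE 0.17), and eIF4G2 at 250.3 and 245.2 CPM in NC2b RNAi and 214.8 and 214.1 CPM in hsbam (0.31, SE 0.19). eEF1alpha2, at 2.30 and 2.73 CPM in NC2b RNAi and 10.6 and 47.0 CPM in hsbam, had a log2 fold change of -3.40 (SE 1.18, adjusted p = 0.0917 by edgeR). Muscle sheath markers summed to 3705 and 4387 CPM in NC2b RNAi and 25360 and 7640 CPM in hsbam. Follicle cell markers (8 genes) summed to 20300 and 17770 CPM in NC2b RNAi and 7379 and 16480 CPM in hsbam, and 2 rose and 1 fell. The part of these cells was not tested.

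Set directly against NC2b RNAi, the MSL3-labelled libraries gave no call. Of 45 factors 0 passed by edgeR, as of all 10180 genes (0.0%), and 0 by DESeq2, with 10 at an unadjusted p under 0.05 (1 higher and 9 lower in MSL3-labelled libraries) against 11.6% of all genes. The median was -0.30, against 0.04 over all genes, and 38 of 45 were below 0. The groups did not overlap in 1 factor higher and 27 lower, against 23.9% and 23.2% of all genes. A call in MSL3-labelled libraries and not in NC2b RNAi is therefore not shown to be a difference between them. The smallest adjusted p was 0.417 by edgeR, reached by both eIF6 (-0.76, SE 0.17) and eEF1delta (-0.83, SE 0.22).

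Other genes of the pathway were counted in the same fits. Of 17 regulators of initiation tested, 6 rose in MSL3-labelled libraries and 0 fell (median 0.50), against 16.8% up and a median of -0.09 over all genes. They were led by raptor, a TORC1 subunit (1.89, SE 0.27, adjusted p = 0.0100 by edgeR), PEK, an eIF2alpha kinase (1.65, SE 0.25, adjusted p = 0.0109 by edgeR), and Gyf, a partner of eIF4EHP (1.35, SE 0.22, adjusted p = 0.0118 by edgeR). In NC2b RNAi 5 of the 17 rose and 0 fell (median 0.42), against 14.1% up and a median of -0.09 over all genes. They were led by Gyf (1.33, SE 0.22, adjusted p = 0.0186 by edgeR), raptor (1.56, SE 0.26, adjusted p = 0.0195 by edgeR) and NAT1, an eIF4G-related initiation factor (1.36, SE 0.23, adjusted p = 0.0202 by edgeR). The 2 comparisons share their hsbam libraries. Of 74 canonical ribosomal proteins, 70 fell in MSL3-labelled libraries (median -1.10), against 8.48% of all genes. In NC2b RNAi 3 fell (median -0.55), no larger a share than the 4.53% of all genes.

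Few genes of the remaining lists were called. All genes gave 16.8% up and 8.48% down in MSL3-labelled libraries, and 14.1% up and 4.53% down in NC2b RNAi. With so few genes in each list, single calls are not read as a result about the list. Of 7 genes for hypusine and diphthamide modification, which act on eEF5 and eEF2, Dph1 rose in MSL3-labelled libraries (0.76, SE 0.19, adjusted p = 0.0376 by edgeR) and Dph2 fell (-0.74, SE 0.18, adjusted p = 0.0315 by edgeR). Dph1 also rose in NC2b RNAi (0.75, SE 0.19, adjusted p = 0.0486 by edgeR). Of 19 cytosolic aminoacyl-tRNA synthetases HisRS fell in MSL3-labelled libraries (-0.55, SE 0.15, adjusted p = 0.0445 by edgeR) and TrpRS rose in NC2b RNAi (0.69, SE 0.16, adjusted p = 0.0359 by edgeR). Of 7 termination and rescue factors, 0 were called in MSL3-labelled libraries and pelo, a ribosome rescue factor, rose in NC2b RNAi (0.78, SE 0.19, adjusted p = 0.0443 by edgeR). Of 8 mitochondrial translation factors, 0 were called in MSL3-labelled libraries, while mIF3 (1.10, SE 0.25, adjusted p = 0.0346 by edgeR) and mEFG1 (0.92, SE 0.23, adjusted p = 0.0430 by edgeR) rose in NC2b RNAi. In the other comparisons no gene of these 5 lists was called by edgeR.

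In Set2 RNAi no factor passed the test against hsbam 3 and 4. By edgeR 0 of 44 passed, as of all 9313 genes (0.0%), with 3 at an unadjusted p under 0.05 (21.2% of all genes) and 1 called by DESeq2. Both Set2 RNAi libraries were above both hsbam libraries in 19 factors and below in 5, against 39.0% and 25.5% of all genes. The 3 were eEF1alpha2, eIF6 and eIF2Bdelta, the last named after its value was seen. With Set2 RNAi, eEF1alpha2 stood at 4.26 and 6.76 CPM, while hsbam 3 and 4 had 16.7 and 39.7 CPM, a log2 fold change of -2.54 (SE 0.57, adjusted p = 0.0985 by edgeR). The summed muscle sheath markers came to 1458 and 1349 CPM with Set2 RNAi, far under the 15490 and 31470 CPM of hsbam 3 and 4, and their part was not tested. eIF6 stood at 136 and 114 CPM with Set2 RNAi, against 49.0 and 62.0 CPM in hsbam, which do not overlap (1.01, SE 0.34, adjusted p = 0.188 by edgeR). eIF2Bdelta, a subunit of the exchange factor, stood at 115.2 and 119.3 CPM with Set2 RNAi, against 67.8 and 48.4 CPM in hsbam (0.85, SE 0.32, adjusted p = 0.231 by edgeR).

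The control libraries of Set2 RNAi were uneven. Between hsbam 3 and 4 the median absolute log2 difference of the 40 factors was 0.39, against 0.17 between hsbam 1 and 2 and 0.16 between the Set2 RNAi libraries. Long and short factors differed in opposite directions: eIF4G2 had 293.8 CPM in hsbam 3 and 75.9 CPM in hsbam 4, eIF4G1 had 1078 and 328.3 CPM, and eIF1, a short transcript, had 340.5 and 646.7 CPM. Spearman's rho of exon length with the log2 ratio of hsbam 3 to hsbam 4 was 0.72 over the 40 factors and 0.57 over 6573 genes. With hsbam 3 or hsbam 4 left out, factors passed in both directions, but such a fit rests on 1 control library. That library is taken to vary like the Set2 RNAi pair. The share of all genes passing there is not given here, so these calls are not read as a result about the factors. Both control pairs carry the same labelled genotype, and between hsbam 3 and 4 and hsbam 1 and 2 0 of 45 factors passed by edgeR (0.0% of 10031 genes), with 1 at an unadjusted p under 0.05, eIF4E3 (-2.32), and 0 by DESeq2.

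In bam RNAi ovaries with the S19b mutation no factor passed the test against bam RNAi alone. By edgeR 0 of 45 passed, against 6.13% of 9595 genes (5.52% up, 0.604% down), with 1 at an unadjusted p under 0.05 (23.0% of all genes) and 0 by DESeq2. The median log2 fold change was -0.08, against 0.00 over all genes, and the 40 factors of at least 10 CPM lay between -0.92 and 0.43 with a median SE of 0.22. The 1 was eEF1alpha2, with 18.6 and 11.6 CPM in the mutant and 28.6 and 31.1 CPM in bam RNAi (-0.92, SE 0.31, adjusted p = 0.133 by edgeR). Summed muscle sheath markers stood at 7253 and 12770 CPM in the mutant and 3199 and 3123 CPM in bam RNAi, and 8 of 8 passed as higher. Other somatic lists also held genes that passed as higher, against 5.52% of all genes. They were 3 of 8 follicle cell, 3 of 3 hemocyte, 1 of 3 fat body and 1 of 7 germarium somatic markers tested. Of 6 germline markers 0 passed. The part of these cells in the factors' levels was not tested. eIF4G2 had 568.4 and 376.3 CPM in the mutant and 885.3 and 625.7 CPM in bam RNAi, which do not overlap (-0.63, SE 0.32, adjusted p = 0.290 by edgeR). eIF4EHP had 142.1 and 112.1 CPM in the mutant and 106.1 and 90.02 CPM in bam RNAi (0.43, SE 0.23, adjusted p = 0.321 by edgeR). eIF4E3 was at 33.4 and 41.2 CPM in the mutant and 20.7 and 33.2 CPM in bam RNAi (0.53, SE 0.25, adjusted p = 0.266 by edgeR). Both mutant libraries were above both bam RNAi libraries in 5 factors and below in 11, against 26.6% and 28.3% of all genes. With mutant replicate 1 left out, eEF1alpha2 and eIF4G2 stayed lower, but such a fit rests on 1 mutant library. That library is taken to vary like the bam RNAi pair. The share of all genes passing there is not given here, so that fit is not read as a result about the factors.

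Total and polysome RNA asked whether S19b RNAi altered the factors' mRNA levels or their place on polysomes. By edgeR 0 of 44 factors passed in S19b RNAi against hsbam in total RNA, in the same comparison in polysome RNA, in polysome against total RNA of hsbam and of S19b RNAi, and in the difference of that ratio between genotypes. All genes gave 0.0% of 9688 in each of these. The factors at an unadjusted p under 0.05, and those called by DESeq2, were also 0 in all 5. Medians of the fold changes lay between -0.09 and 0.04. Groups that did not overlap numbered 3 factors higher and 3 lower in S19b RNAi total RNA (17.4% and 13.7% of all genes) and 3 higher and 0 lower in S19b RNAi polysome RNA (13.9% and 9.82%). Polysome RNA did not overlap total RNA in 2 factors higher and 4 lower in hsbam (10.3% and 10.0% of all genes), and in 3 higher and 0 lower in S19b RNAi (10.3% and 8.74%). The median SE of a factor was 0.59 in the 4 simple comparisons and 0.83 for the change of the ratio, so that changes of this size were not detectable. Far larger changes could also go uncalled. RpS19b itself did not pass in S19b RNAi against hsbam, at -3.98 (SE 1.37) in total RNA and -4.52 (SE 1.405) in polysome RNA. The absence of calls thus does not show that the factors were unchanged. Without hsbam polysome 1, eIF2Bdelta and eIF3k passed as higher in S19b RNAi polysome RNA than in hsbam and as lower in hsbam polysome than total RNA. These calls rest on hsbam polysome 2 alone, the shallowest library, with 14 counts of eIF2Bdelta and 18 of eIF3k, and the other groups supply the spread.

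The replicates of this experiment were uneven. Between hsbam polysome 1 and 2 the median absolute log2 difference of the 40 factors was 1.10, and between S19b RNAi polysome 1 and 2 it was 0.62. eIF2D, an alternative initiator tRNA factor, had 55.8 CPM in hsbam polysome 1 and 0.360 in hsbam polysome 2. eEFSec, the selenocysteine elongation factor, had 0.110 CPM in S19b RNAi total 1 and 11.5 CPM in S19b RNAi total 2. These extremes fell in libraries with under 9000 genes detected.

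The libraries with many genes detected, S19b RNAi 2 and hsbam 1, had ratios of polysome to total RNA much like each other. The factors' medians were 0.00 and -0.01 on the log2 scale. eIF4G1 had a log2 ratio of -2.04 in S19b RNAi 2 and -1.56 in hsbam 1, from 148.4 CPM in polysome and 608.6 CPM in total RNA of S19b RNAi 2, and 279.7 and 824.4 CPM in hsbam 1. eIF4H1 had -1.28 and -1.06, and eIF4EHP had -1.10 and -0.80. The short eIF1, which guards the start codon choice, had 1.22 and 1.04. In the pairs with few genes detected, S19b RNAi 1 and hsbam 2, eIF4G1 had 0.05 and -0.86, eIF4H1 0.86 and 1.00, eIF4EHP 0.00 and 0.65, and eIF1 -0.29 and 0.72, so only eIF1 in hsbam 2 and eIF4G1 in hsbam 2 kept the direction. Spearman's rho of exon length with the ratio was -0.48 in S19b RNAi 2 and -0.34 in hsbam 1 over the 40 factors, against 0.27 in S19b RNAi 1 and -0.12 in hsbam 2. Over 6573 genes the values were -0.59 and -0.42, against -0.07 and -0.06. The part of transcript length in these ratios was not tested.

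Only eIF6, above 0 in all 4 pairs (0.05 to 0.12), and eIF3k, below 0 in all 4 (-4.61 to -0.08), had the same sign throughout. That is 2.5% of the 40 factors in each direction, against 10.3% and 9.12% of 6742 genes. The ratios of abundant factors are given by pair as description, since 0 of 44 factors passed polysome against total RNA in either genotype. eEF2 had log2 ratios of -0.07, 0.00, 0.02 and -0.44 in S19b RNAi 1, S19b RNAi 2, hsbam 1 and hsbam 2, and eIF4E1 had 0.06, -0.27, -0.16 and -0.23. eIF4A had -0.12, -0.27, -0.35 and 0.20, and the eEF1 subunit eEF1beta had 0.00, -0.17, -0.72 and -0.72.

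**Figure D4:**
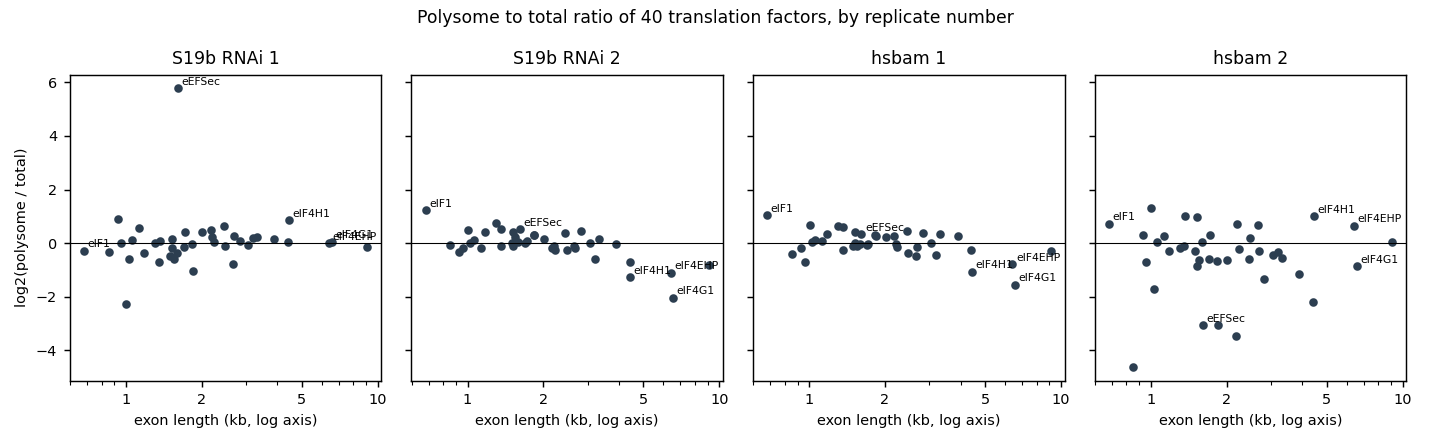
Log2 ratio of polysome to total CPM (vertical) of the 40 factors with a median of at least 10 CPM against their exon length (horizontal, log axis), by genotype and replicate number. In S19b RNAi 2 and hsbam 1 the long transcripts eIF4G1, eIF4H1 and eIF4EHP lie below 0 and the short eIF1 above it, and the other panels hold outlying points such as eEFSec.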

How the data were processed

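Poly(A)-selected, directional RNA sequencing libraries were made from dissected ovaries, per the labels' protocols. The deposited values are raw counts per gene, which the authors made from reads with HISAT2 2.1.0 (dm6) and featureCounts 1.6.0.4, with edgeR 3.16.5 also named, per the submitters' processing notes. For the annotation release and the strand option no statement was found (not given in the sources used here), and overlapping genes may share reads. The 23 deposited count tables held 17023 gene IDs, and 8 small tables were not used. Symbols, positions and exon lengths came from the Ensembl release 115 annotation, whose coordinates are those of dm6.

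CPM used each library's total count, and CPM per kb the union of exons. Counts were tested with edgeR 4.0.16 (R 4.3.3, limma 3.58.1) by TMM scaling, filterByExpr (minimum count 10, minimum total 15) and the quasi-likelihood test with Benjamini-Hochberg adjustment over all genes, in 5 fits giving 11 comparisons. Standard errors (SE) were taken as fold change over the square root of F. A gene was called at an adjusted p under 0.05. Polysome ratios used a prior count of 2, and Poisson intervals (95%) and floors (3 counts) cover counting error only. Scripts were tested on simulated data. Alternatives were DESeq2 1.42.0, other scalings, no filter, a replicate block, all hsbam libraries as control and leaving out libraries. Figures used matplotlib 3.10.9 (Python 3.11.15).

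Genes were named by rule: the eIF2 subunits, eIF4A, eIF4B, the eIF4E genes, eIF4EHP, eIF4G1, eIF4G2, eIF5, eIF5B, eIF6, eEF1alpha2 and eEF2, plus up to 4 rising and 4 falling factors with the largest fold change past the threshold, and in other lists up to 3 with the smallest p. All other members named, among them eIF2Bbeta, eIF3e, eIF3f1, eIF1, eIF4H1, eIF2Bdelta, eIF2D, eEFSec and eIF3k, the exon length comparison and its boundary of 2000 bases were chosen after values were seen. The members and lists were chosen with earlier results of these data known.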

Additional observations from a re-analysis of the deposited data

How the results depend on the processing

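The shares of all genes called under alternative settings are not given here. Libraries were few, so the counts of called factors moved with the processing, and the causes were not tested. In the MSL3-labelled comparison (8 called) they were 5 with DESeq2 size factors, 3 without a filter on low counts, 15 by DESeq2, 2 with the replicate block (eIF3g1, eIF4G2), 0 with all 4 hsbam libraries as control, and 0 to 4 leaving out a library. For NC2b RNAi (0 called) they were 1 without a filter (eIF4G1), 9 by DESeq2 and 0 to 5 leaving out a library. For Set2 RNAi (0 called) they were 1 without a filter and 1 by DESeq2 (eEF1alpha2), and 0 to 20 leaving out a library. For the S19b mutant with bam RNAi (0 called) they were 1 without a filter (eEF1alpha2), 4 with the replicate block (eEF1alpha2, eIF3e, eIF4EHP, eIF4G2) and 0 to 2 leaving out a library. For S19b RNAi polysome RNA against hsbam, and for hsbam polysome against total RNA, leaving out a library gave 0 to 2. Scaling by library size alone moved the factors' median to -0.15 for NC2b RNAi, 0.17 for Set2 RNAi, -0.13 for the S19b mutant and -0.071 for hsbam 3 and 4 against hsbam 1 and 2. Of the alternatives run, 102 of 126 counts, 22 of 26 medians and 29 of 96 single-gene results kept their call or size, and no single-gene call changed sign. The unchanged counts include those that stayed at 0 in comparisons where 0.0% of all genes passed, so this tally is not a measure of stability. In the MSL3-labelled comparison, the only one with calls, scaling by library size alone was the only alternative that kept the count at 8.

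The labels do not say that shared replicate numbers pair libraries. Same-numbered libraries had correlated deviations of -0.22, -0.16 and 0.25 in the MSL3 and NC2b fit and 0.33 in the bam RNAi fit. In the polysome fit the values were 0.48 and 0.54 between total and polysome RNA of one genotype and -0.64 to -0.34 across genotypes. No paired analysis was possible because the groups share no replicate numbers for Set2 RNAi against hsbam 3 and 4, and for hsbam 3 and 4 against hsbam 1 and 2. Leaving out the 4 libraries with under 9000 genes, chosen after seeing the data, kept the medians of 4 of the 5 comparisons of the polysome experiment within their spread, and it was not run for the change of the ratio. Low depth in hsbam polysome 2 limits every value that rests on it.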
